A study of Mus musculus with 29 samples.

Results

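The 10 genes described here encode receptors, junction proteins and growth factors of the blood vessel endothelium. They were taken by symbol from a table of 24770 gene symbols, and each had 1 entry in it. The receptors were Kdr (VEGFR2), Flt1 (VEGFR1) and Tek (TIE2), the junction and adhesion genes were Cdh5 (VE-cadherin), Pecam1 (CD31) and Icam2, and the ligands were Angpt1, Angpt2, Vegfa and Vegfb. RNA-seq had been performed on brown adipose tissue (BAT) and gastrocnemius muscle (SkM) of male C57BL/6J wild-type mice. Control mice ate freely and were sedentary, CR mice were calorie-restricted and sedentary, EX mice ate freely and were trained on a treadmill, and CREX mice (CE in the sample labels) received both treatments. BAT was represented by 3 control, 4 CR, 4 EX and 4 CREX libraries and SkM by 4 control, 3 CR, 4 EX and 3 CREX libraries. The interventions began at 8 weeks of age and ran for 8 weeks, food was lowered stepwise to 70% of free intake, and training was 1 h of running at 12 m/min on 5 days a week. All mice were fasted for 6 h before harvest, and trained mice were harvested 24 h after their last run. Below, CR and CREX together are called restricted, and control and EX together fully fed. Whole tissue was sequenced, so that each value is a mixture over all its cells.

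VEGFA is released by muscle fibres, adipocytes and other parenchymal cells and binds KDR and FLT1 on endothelial cells. KDR carries most of the growth and survival signal, whereas FLT1 binds VEGFA tightly, signals weakly and is also made as a soluble form that sequesters the ligand. VEGFB binds FLT1 and not KDR. ANGPT1, made largely by perivascular cells, activates TEK and stabilises vessels, and ANGPT2, made by endothelial cells, can compete with it. In brown fat and in oxidative muscle this system maintains the dense capillary bed on which heat production and endurance depend.

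Kdr and Flt1 encode homologous receptors for the same ligand, and under restriction Kdr was lower in both tissues by the adjusted p while Flt1 did not pass in either, so the sequence before each start site is shown. Both are from RefSeq, build GRCm38.p6, read 5′ to 3′ on the gene's own (minus) strand and ending at the base before the start site. Capitals mark AGGAAG or CTTCCT and CCGGAA or TTCCGG, forms of the core bound by ETS family factors, and TATAAA or TTTATA. The Kdr stretch is chr5:75978456-75978705 and the Flt1 stretch is chr5:147726012-147726261.
Kdr: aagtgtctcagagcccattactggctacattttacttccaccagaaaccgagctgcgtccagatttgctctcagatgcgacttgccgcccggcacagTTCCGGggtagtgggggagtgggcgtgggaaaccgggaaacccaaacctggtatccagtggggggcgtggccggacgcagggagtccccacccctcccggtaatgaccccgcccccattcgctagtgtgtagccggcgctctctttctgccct
Flt1: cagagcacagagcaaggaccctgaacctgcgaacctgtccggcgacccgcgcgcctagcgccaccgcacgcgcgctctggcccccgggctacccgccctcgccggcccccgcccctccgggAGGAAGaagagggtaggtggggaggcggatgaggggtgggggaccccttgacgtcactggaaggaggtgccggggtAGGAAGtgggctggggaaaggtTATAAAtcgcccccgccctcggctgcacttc

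The Kdr sequence held TTCCGG, beginning 153 bases before the start site, and no TATAAA. The Flt1 sequence held AGGAAG at 129 and 53 bases before the start site and TATAAA at 31 bases before it. Neither held ACGTG or CACGT, a form of the core of the hypoxia response element, and other forms of that core were not searched. Searched on both strands in 32851 promoter sequences of the same 250 bases, AGGAAG was present in 29.5%, CCGGAA in 12%, TATAAA in 12.4% and ACGTG in 16.6%. These matches describe letters, not bound sites. Of the 10 genes, 5 had a promoter sequence in the table used.

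On build GRCm38 (GENCODE vM21), all 10 are protein-coding. Kdr (chr5:75932827-75978458) and Flt1 (chr5:147561604-147726011) share a chromosome, as do Icam2 (chr11:106377656-106388075) and Pecam1 (chr11:106654217-106750628), and Cdh5 (chr8:104101625-104144511) and Angpt2 (chr8:18690263-18741562). Tek lies at chr4:94739289-94874976, Angpt1 at chr15:42424723-42676977, Vegfa at chr17:46016993-46032369 and Vegfb at chr19:6982473-6987651. Counts were per gene, so soluble and membrane-bound Flt1, or the isoforms of Vegfa, were counted together.

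Depth ran from 21047242 to 24919377 expected counts per library in BAT and from 23050918 to 23425284 in SkM, and all 10 genes passed the filter on low counts in every comparison. Levels are in CPM, the share of a library's counts that fell on a gene, scaled to the same total in every library. BAT libraries carried 8 adipocyte genes at 9751 to 12143 CPM in sum, against 106 to 352 CPM in SkM. Libraries stood apart in both tissues. In SkM, 8 slow muscle fibre genes, none at 0 throughout any group, summed to 1353 to 2284 CPM in control, 1946 to 2245 CPM in CR, 507 to 2167 CPM in EX and 64.8 to 776 CPM in CREX, with CREX replicates 2 and 3 at 125 and 64.8 CPM. In BAT, 10 skeletal muscle fibre genes, none at 0 throughout any group, summed to 3.63 to 750 CPM in control, 21.4 to 1606 CPM in CR, 6.48 to 4293 CPM in EX and 1130 to 6940 CPM in CREX. The main results are given with and without these libraries. Fold changes are from edgeR's quasi-likelihood test with Benjamini-Hochberg adjustment over all genes tested. A gene was called when its adjusted p was under 0.05 and its fold change above 1.5. Values after ± are SD for levels and SE for log2 fold changes.

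In control mice the ligand genes Vegfb and Vegfa had the highest level of the 10 per length of exon. In BAT control libraries it was 73.0 ± 2.68 CPM per kb for Vegfb, 57.0 ± 1.71 for Vegfa, 26.0 ± 2.48 for Cdh5, 11 ± 1.12 for Pecam1, 7.63 ± 0.581 for Kdr, 5.33 ± 0.439 for Tek, 3.98 ± 0.357 for Icam2, 3.28 ± 0.609 for Flt1, 2.58 ± 0.235 for Angpt1 and 0.199 ± 0.0333 for Angpt2 (n = 3). SkM control libraries gave 94.7 ± 10.1 CPM per kb for Vegfb, 53.1 ± 5.20 for Vegfa, 23.1 ± 3.11 for Cdh5, 11.8 ± 1.07 for Pecam1, 6.02 ± 1.02 for Kdr, 4.52 ± 0.322 for Tek, 3.22 ± 0.464 for Icam2, 3.09 ± 0.375 for Flt1, 1.48 ± 0.347 for Angpt1 and 0.533 ± 0.159 for Angpt2 (n = 4). The order was thus the same in both tissues. Exons of all annotated isoforms were summed for the length (13504 bases for Flt1 and 9030 for Kdr), which places genes with many isoforms low. Between the tissues of control mice 2 of the 10 genes were called, against 60% of all genes tested. Angpt1 was higher in BAT (log2 fold change 0.78 ± 0.16, adjusted p = 0.000746) and Angpt2 was lower (-1.45 ± 0.28, adjusted p = 0.0006). Kdr (0.31, adjusted p = 0.0393) and Vegfb (-0.40, adjusted p = 0.00348) passed the adjusted p alone, which 74.9% of all genes did with or without the fold minimum.

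**Figure D1:**
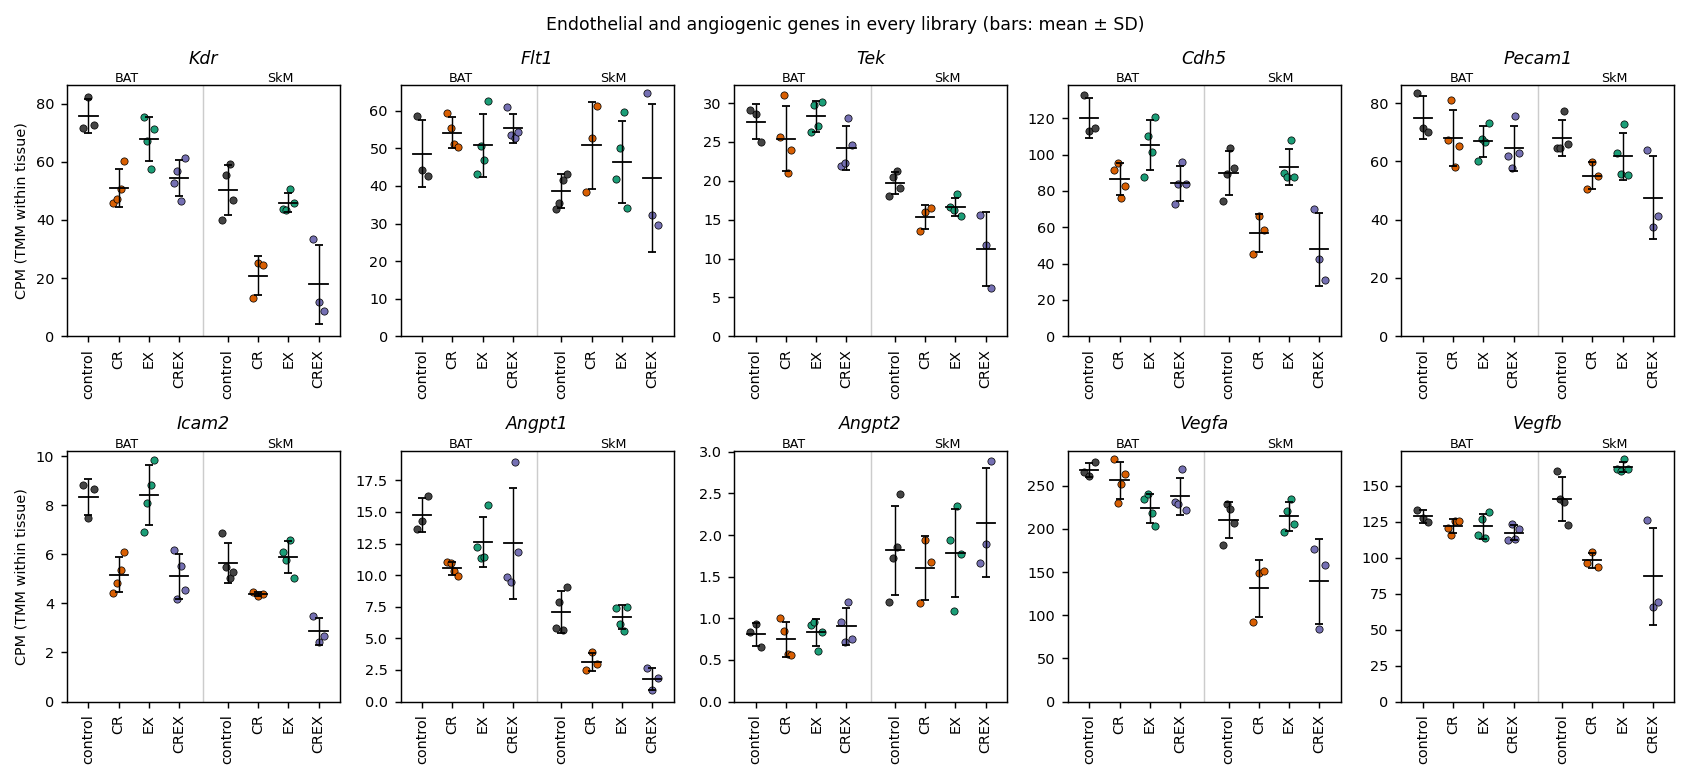
Level of each of the 10 genes in every library, in CPM scaled within a tissue by TMM (trimmed mean of M values), with points for libraries and bars for the group mean ± SD (n = 3 or 4). In SkM the CR and CREX points of Kdr, Cdh5, Icam2, Angpt1 and Vegfa all lie below the control and EX points, whereas in BAT this holds for Icam2.

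Between CR and control muscle 4 of the 10 genes were called, all lower in CR, against 9.6% of all genes called and 5.32% called lower. They were Kdr, its ligand Vegfa, the TEK agonist Angpt1 and the junctional cadherin Cdh5. The median log2 fold change of the 10 was -0.44, beside 0.00 over all genes tested. In bulk RNA, fewer cells that express a gene and less of its RNA per cell cannot be told apart.

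Kdr stood at 39.9, 55.5, 59.1 and 46.7 CPM in the control muscles and at 13, 25 and 24.6 CPM in the CR muscles. The groups did not overlap, and CR replicate 1 was the lowest. The log2 fold change was -1.27 ± 0.22 (2.40-fold lower, adjusted p = 0.0046). Flt1, the other VEGFA receptor, measured 34.0, 35.4, 41.5 and 43.2 CPM in control and 38.4, 52.8 and 61.4 CPM in CR. The groups overlapped, and the log2 fold change of 0.40 ± 0.15 did not pass (adjusted p = 0.112). Tek, the angiopoietin receptor, was 18, 20.4, 21.3 and 19.1 CPM in control and 13.6, 16.0 and 16.5 CPM in CR, apart in range but short of the threshold (-0.36 ± 0.11, adjusted p = 0.0507).

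Cdh5, whose product holds endothelial cells together at adherens junctions, was 74.4, 89.1, 104 and 92.6 CPM in control and 45.5, 66.3 and 58.5 CPM in CR (-0.66 ± 0.15, adjusted p = 0.0162). The ranges did not overlap, and CR replicate 1 was again the lowest. Pecam1, an adhesion receptor of the endothelial border, differed by -0.30 ± 0.11 (adjusted p = 0.0946), and Icam2, a ligand of leukocyte integrins, by -0.36 ± 0.15 (adjusted p = 0.129). Neither passed. For 8 of the 10 genes, all but Flt1 and Angpt2, every CR library was below every control library, beside 13.9% of all genes tested.

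Angpt1 was 5.84, 7.86, 5.65 and 9.07 CPM in control and 2.50, 3.91 and 2.98 CPM in CR (-1.18 ± 0.21, adjusted p = 0.00574). Vegfa was 182, 229, 223 and 207 CPM in control and 92.7, 149 and 152 CPM in CR (-0.68 ± 0.17, adjusted p = 0.0261). Neither gene overlapped between the groups, and CR replicate 1 was the lowest library for both. Vegfb, which acts through FLT1, was 160, 140, 139 and 123 CPM in control and 96.5, 104 and 93.8 CPM in CR, and passed the adjusted p (0.0177) with a fold under the minimum (-0.52 ± 0.12). In all 5 of the 10 passed the adjusted p in this direction, beside 7.67% of all genes. Angpt2 had few counts, 26 to 60 in control and 27 to 49 in CR, and differed by -0.18 ± 0.27 (adjusted p = 0.705). Without CR replicate 1, Vegfa (-0.49, adjusted p = 0.0179) and Cdh5 (-0.54, adjusted p = 0.0206) fell under the fold minimum, leaving 2 calls. Without control replicate 3 both lost the adjusted p (0.0785 and 0.0553), and without control replicate 2 Vegfa did (0.081).

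In trained mice (CREX against EX) 4 genes were called, all lower in CREX, against 8.87% of all genes called and 5.17% called lower. They were Angpt1 (-1.90 ± 0.30, adjusted p = 0.00876), Icam2 (-1.04 ± 0.18, adjusted p = 0.0103), Vegfb (-0.90 ± 0.21, adjusted p = 0.0276) and Cdh5 (-0.96 ± 0.25, adjusted p = 0.0392). The same 4 passed the adjusted p without the fold minimum, as 6.96% of all genes did in this direction. The median of the 10 was -0.76. Angpt1 was 7.42, 6.15, 5.60 and 7.50 CPM in EX and 2.62, 0.903 and 1.82 CPM in CREX. Icam2 was 6.11, 5.79, 6.60 and 5.03 CPM in EX and 3.50, 2.42 and 2.66 CPM in CREX. In both genes every CREX library lay below every EX library, which held for 6 of the 10 genes (also Kdr, Cdh5, Vegfa and Vegfb) and for 14.3% of all genes tested. Kdr was 43.7, 43.5, 50.7 and 45.8 CPM in EX and 33.5, 11.7 and 8.61 CPM in CREX, apart in range but widely spread in CREX (-1.36 ± 0.46, adjusted p = 0.0951). CREX replicate 1 was nearer to EX than replicates 2 and 3 for Kdr, Cdh5, Vegfb and Vegfa.

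The count of calls in trained muscle moved with each library left out, from 2 to 8. Cdh5 and Vegfb lost the call in each of these fits except the one without CREX replicate 1, in which Kdr (-2.18, adjusted p = 2.76e-06), Tek (-0.90), Pecam1 (-0.65) and Vegfa (-0.82) were called in addition. CREX replicates 2 and 3 were also the libraries with the fewest slow fibre transcripts. With the slow fibre score (the mean log2(CPM + 1) of the 8 genes) as a covariate none of the 4 genes passed in edgeR (adjusted p = 0.112 for Angpt1, 0.145 for Icam2, 0.239 for Vegfb and 0.259 for Cdh5), with log2 fold changes of -1.77, -0.85, -0.54 and -0.49. The score was 2.25 to 6.18 in CREX and 4.91 to 7.86 in EX, so the covariate partly followed these groups. CR muscles, at 7.73 to 7.85, lay within the control range of 7.14 to 7.94. There the same covariate gave 4 calls in edgeR, with Kdr at -1.37 (adjusted p = 0.00324) and Vegfa at -0.76 (adjusted p = 0.017). The share of all genes called in these covariate fits was not determined.

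**Figure D2:**
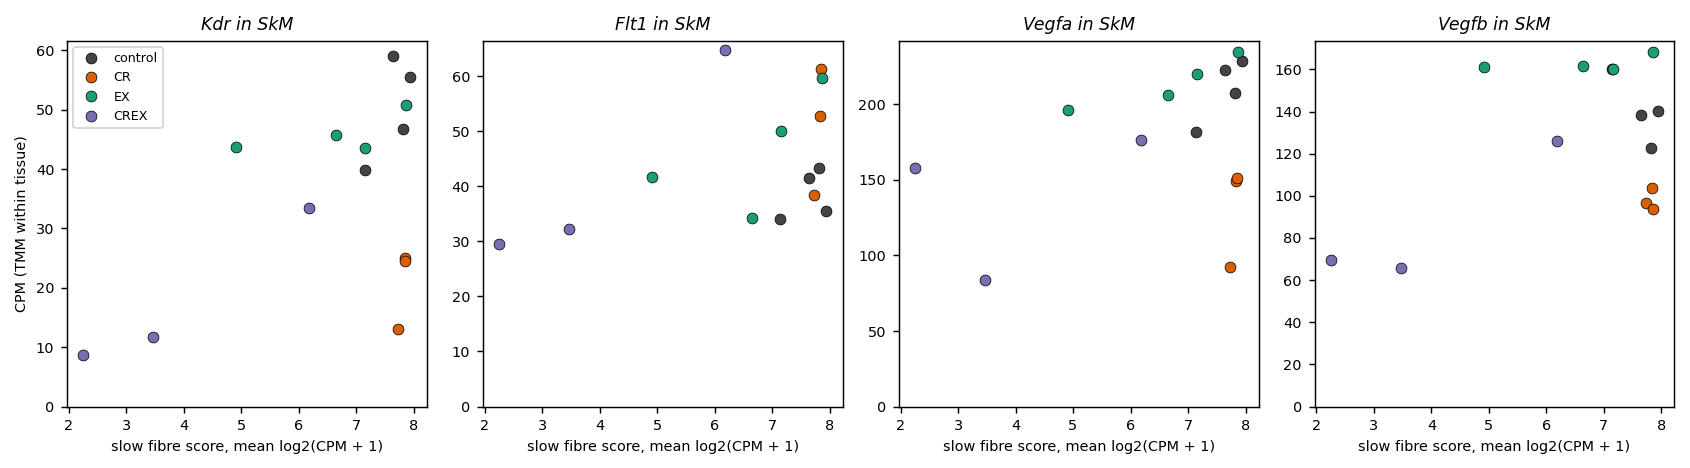
Levels of Kdr, Flt1, Vegfa and Vegfb (CPM) in each SkM library against the slow fibre score, the mean log2(CPM + 1) of 8 slow muscle fibre genes, coloured by group. CREX replicates 2 and 3 sit at the low end of the score, whereas the 3 CR libraries lie among the control libraries on the score and below them for Kdr, Vegfa and Vegfb.

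Over both activity levels (restricted against fully fed, the CR main effect) 6 of the 10 genes were called in SkM, all lower, against 14.1% of all genes called and 8.13% called lower. Angpt1 fell by 1.54 on the log2 scale (SE 0.19, 2.91-fold, adjusted p = 4.38e-05) and Kdr by 1.32 (SE 0.27, 2.50-fold, adjusted p = 0.00266). Cdh5 (-0.81 ± 0.15, adjusted p = 0.000949), Vegfb (-0.71 ± 0.12, adjusted p = 0.000545), Icam2 (-0.70 ± 0.11, adjusted p = 0.000265) and Vegfa (-0.65 ± 0.15, adjusted p = 0.00428) followed. Tek (-0.47, adjusted p = 0.0187) and Pecam1 (-0.34, adjusted p = 0.0246) passed the adjusted p but not the fold minimum, and 17% of all genes passed it in this direction. Flt1 (0.13 ± 0.17, adjusted p = 0.607) and Angpt2 (0.05 ± 0.21, adjusted p = 0.890) did not pass. The median of the 10 was -0.68, beside 0.00 over all genes.

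For 5 of the 10 genes every restricted muscle library was below every fully fed one, which was true of 5.81% of the genes tested. Kdr reached at most 33.5 CPM in the 6 restricted libraries and at least 39.9 CPM in the 8 fully fed libraries. For Vegfa these limits were 177 and 182 CPM, for Cdh5 70.2 and 74.4 CPM, for Icam2 4.48 and 5.02 CPM and for Angpt1 3.91 and 5.60 CPM. Vegfb overlapped, since CREX replicate 1 was at 126 CPM and control replicate 4 at 123 CPM. By group mean, Kdr, Tek, Pecam1 and Angpt1 ran CREX, CR, EX and control from low to high, Cdh5, Icam2 and Vegfb ran CREX, CR, control and EX, and Vegfa ran CR, CREX, control and EX. Between the second and the third group of these orders the libraries did not overlap for Kdr, Cdh5, Icam2, Angpt1, Vegfa and Vegfb. For all but Vegfb this follows from the separation given above. The share of all genes with such neighbours was not determined. For Icam2 CREX also lay wholly below CR, and all other neighbours overlapped, as did all neighbours of Flt1 (control, CREX, EX, CR) and Angpt2 (CR, EX, control, CREX).

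Leaving out any single muscle library gave 5 to 7 calls. Vegfa dropped under the fold minimum without CR replicate 1 (-0.55) or CREX replicate 2 (-0.52), and Tek was called without CREX replicate 1 (-0.62). Without both CREX replicates 2 and 3 the CREX group was a single library, so effect sizes alone are given. Angpt1 (-1.28) and Kdr (-0.88) stayed above the fold minimum. Cdh5 (-0.55), Icam2 (-0.58), Vegfa (-0.50) and Vegfb (-0.46) then had folds under 1.5. With the slow fibre score as a covariate the calls were Kdr (-1.02), Cdh5 (-0.60), Icam2 (-0.64) and Angpt1 (-1.46). In that fit 10% of all genes were called, against 14.1% without the covariate. Flt1 was then higher by the adjusted p alone (0.40 ± 0.13, adjusted p = 0.0461). Both settings were chosen after the data had been seen.

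**Figure D3:**
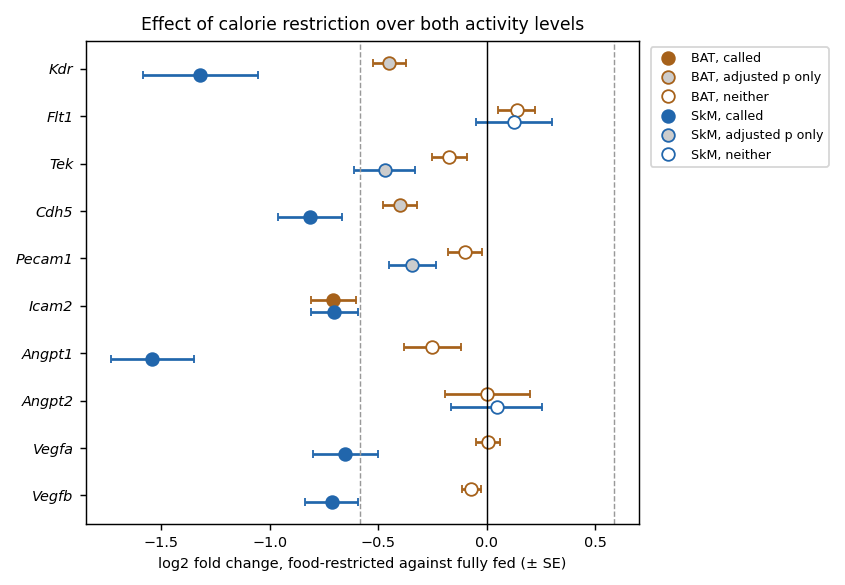
Log2 fold change (± SE) of restricted against fully fed libraries over both activity levels, for each gene in BAT (brown) and SkM (blue), with dashed lines at a 1.5-fold change. Kdr, Cdh5, Icam2, Angpt1, Vegfa and Vegfb are called in SkM and Icam2 in BAT, while Flt1 and Angpt2 pass in neither tissue.

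In BAT, Icam2 was the 1 gene of the 10 called between CR and control, a share near the background of 10.7% of all genes called and 6.86% called lower. It was 8.83, 7.49 and 8.66 CPM in control and 4.43, 4.83, 5.36 and 6.10 CPM in CR, without overlap (-0.68 ± 0.13, adjusted p = 0.00608). Kdr, at 71.7, 82.3 and 72.7 CPM in control and 45.9, 47.1, 50.5 and 60.2 CPM in CR, passed the adjusted p with a fold just under the minimum (-0.57 ± 0.10, adjusted p = 0.00328). Cdh5 (-0.47 ± 0.09, adjusted p = 0.00593) and Angpt1 (-0.48 ± 0.09, adjusted p = 0.00594) did likewise. For these 4 genes every CR library was below every control library, as it was for 16.7% of all genes tested. Thus 4 of the 10 genes passed the adjusted p in the lower direction, beside 10.9% of all genes. Kdr was called as well without control replicate 1 (-0.61), control replicate 3 (-0.59) or CR replicate 4 (-0.66), and with the score of the 10 muscle fibre genes as a covariate (-0.60, adjusted p = 0.00266).

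The VEGF ligand genes of BAT did not pass. Vegfa was 266, 261 and 277 CPM in control and 281, 230, 252 and 264 CPM in CR (-0.06 ± 0.07, adjusted p = 0.565). Vegfb was 133, 127 and 125 CPM in control and 121, 115, 125 and 126 CPM in CR (-0.08 ± 0.06, adjusted p = 0.401). Both overlapped between the groups. Flt1 (0.16 ± 0.11), Tek (-0.12 ± 0.12), Pecam1 (-0.14 ± 0.11) and Angpt2 (-0.11 ± 0.29, from 13 to 23 counts per library) did not pass either.

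Between CREX and EX, BAT again gave 1 call, Icam2 (-0.73 ± 0.16, adjusted p = 0.0228), against 4.48% of all genes called and 2.63% called lower. It stood at 6.93, 8.09, 8.83 and 9.85 CPM in EX and 6.19, 4.17, 5.53 and 4.54 CPM in CREX, without overlap, as in 8.87% of all genes tested in this direction. The call was lost without CREX replicate 2 (adjusted p = 0.0533), CREX replicate 4 (0.0669) or EX replicate 3 (0.0524). No further gene passed the adjusted p, which 4.3% of all genes did in this direction, with Kdr at -0.33 ± 0.10 (adjusted p = 0.0779) and Cdh5 at -0.33 ± 0.11 (adjusted p = 0.0971). Angpt1 was 12.2, 11.3, 11.4 and 15.6 CPM in EX and 9.86, 9.44, 18.9 and 11.8 CPM in CREX (-0.02 ± 0.23, adjusted p = 0.970). The high library, CREX replicate 3, was also the one richest in muscle fibre transcripts. The part of these in that library's value was not tested by itself. Fits over both activity levels that take account of these transcripts are given below.

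Over both activity levels in BAT, Icam2 was again the 1 gene called (-0.71 ± 0.10, adjusted p = 0.000152), with 11.8% of all genes called and 7.83% called lower. Its 8 restricted libraries, at 4.17 to 6.19 CPM, lay below its 7 fully fed libraries, at 6.93 to 9.85 CPM, which held for none of the other 9 genes and for 4.33% of all genes. Kdr (-0.45 ± 0.07, adjusted p = 0.00039) and Cdh5 (-0.40 ± 0.08, adjusted p = 0.00119) passed the adjusted p alone, beside 17.5% of all genes in this direction. Vegfa (0.01 ± 0.06), Vegfb (-0.07 ± 0.04), Pecam1 (-0.10 ± 0.08), Tek (-0.17 ± 0.08), Angpt1 (-0.25 ± 0.13), Flt1 (0.14 ± 0.08) and Angpt2 (0.00 ± 0.20) did not pass. The median of the 10 was -0.14. Icam2 stayed called in each of the 15 fits that left out 1 BAT library. Without the libraries richest in muscle fibre transcripts (CREX replicate 3 and EX replicates 2 and 3) Icam2 was called at -0.72. In that fit 9.25% of all genes were called. Angpt1 then passed the adjusted p (-0.45, adjusted p = 0.00228). With the muscle fibre score as a covariate Icam2 was called at -0.71, beside 12.9% of all genes, and Angpt1 did not pass (-0.22, adjusted p = 0.253). In the order of group means only Icam2 had neighbours that did not overlap, CR and control, and the neighbouring groups of the other 9 genes overlapped. How many of all genes had such neighbours was not determined.

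The effect of restriction differed between the tissues for 4 of the 10 genes when the difference itself was tested (SkM minus BAT, 1 fit over 29 libraries), with 10.5% of all genes called in either direction. The difference was -1.29 ± 0.24 for Angpt1 (adjusted p = 0.000437), -0.87 ± 0.28 for Kdr (adjusted p = 0.029), -0.66 ± 0.17 for Vegfa (adjusted p = 0.00549) and -0.64 ± 0.13 for Vegfb (adjusted p = 0.00103). All 4 were called in the lower direction, as 4.83% of all genes were. Of these 4, Kdr alone passed the adjusted p in BAT over both activity levels. Between CR and control BAT, Kdr and Angpt1 passed it (-0.57 and -0.48, adjusted p = 0.00328 and 0.00594). No difference passed for Flt1 (-0.01 ± 0.21), Icam2 (0.00 ± 0.18), Angpt2 (0.04 ± 0.29), Tek (-0.30 ± 0.17), Pecam1 (-0.24 ± 0.14) or Cdh5 (-0.42 ± 0.17, adjusted p = 0.0936). Without SkM CREX replicate 2 only Angpt1 was called, without SkM CR replicate 1 Angpt1 and Vegfb were, and without SkM CREX replicate 3 Vegfb was lost (-0.58). Without CREX replicates 2 and 3 together a single SkM CREX library was left, so effect sizes alone are given. The difference was then -1.03 for Angpt1, above the fold minimum. For Vegfa (-0.50), Kdr (-0.43) and Vegfb (-0.39) it was under that minimum. Whether a BAT and a SkM library came from the same mouse is not given in the sources used here, and they were treated as separate.

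The balance of the paired receptors and of the paired ligands was read within each library as a ratio of counts, which does not depend on the scaling between libraries. These ratios were chosen after the values had been seen and are given without a test. Kdr over Flt1 was 1.17, 1.57, 1.42 and 1.08 in the control muscles, 1.05, 0.871, 0.851 and 1.34 in EX, 0.338, 0.474 and 0.401 in CR and 0.518, 0.362 and 0.292 in CREX. All 6 restricted muscle libraries lay below all 8 fully fed ones. In BAT the ratio was 1.22, 1.86 and 1.71 in control and 1.74, 1.33, 1.23 and 1.14 in EX, against 0.772, 0.849, 0.986 and 1.19 in CR and 0.861, 1.07, 0.884 and 1.13 in CREX. The BAT ranges overlapped between 1.14 and 1.19, where 1 CR library lay above 1 EX library. Angpt1 over Angpt2 ranged from 2.38 to 5.67 in fully fed and from 0.478 to 2.11 in restricted muscle, without overlap. In BAT it ranged from 11.8 to 24.7 and from 10.3 to 17.9, with overlap. The muscle ratio rests on 24 to 73 counts of Angpt2 per library. Kdr over Pecam1 was also computed, at 0.618 to 0.860 in fully fed and 0.208 to 0.525 in restricted muscle. Vegfa over Pecam1 was 2.81 to 3.95 in fully fed and 1.84 to 3.82 in restricted muscle, with overlap. In BAT both of these ratios overlapped.

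**Figure D4:**
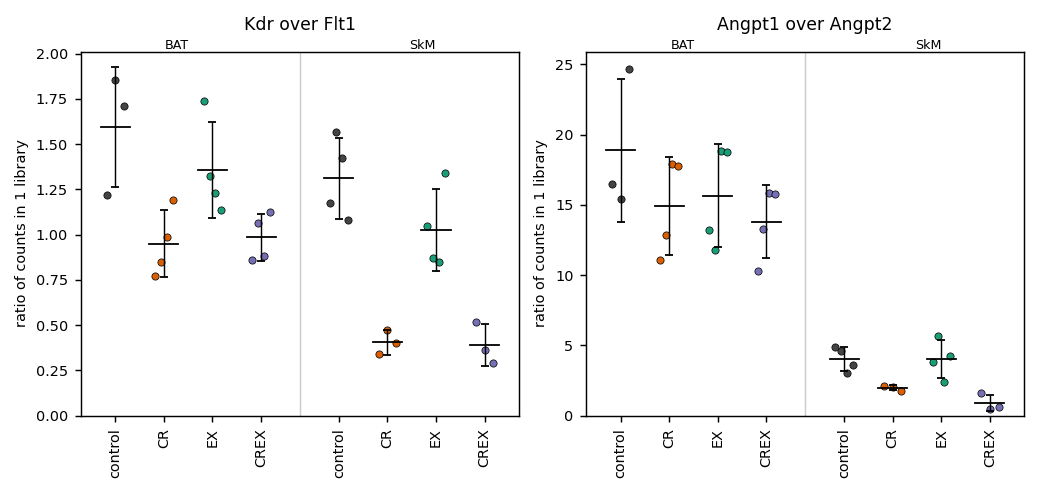
Ratio of counts within each library for Kdr over Flt1 (left) and Angpt1 over Angpt2 (right), with points for libraries and bars for the group mean ± SD. Restricted SkM libraries (CR and CREX) lie at 0.292 to 0.518 for Kdr over Flt1, below the fully fed ones at 0.851 to 1.57.

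Training called none of the 10 genes in either tissue. In BAT, EX against control called 0 of them and 0% of all genes in edgeR, CREX against CR 0 (0.00763% of all genes), the EX main effect 0 (0.00718%) and the interaction of CR and EX 0 (0%). DESeq2 likewise called 0 of the 10 in each, and its own share of all genes called was not determined. In edgeR an unadjusted p under 0.05 was reached by 1, 0, 1 and 0 of the 10 in that order. Over all genes tested the shares at an unadjusted p under 0.05 were 7.25%, 7.63%, 11% and 5.75%. The gene was Vegfa in both cases, at 234, 240, 218 and 203 CPM in EX (-0.25 ± 0.08, adjusted p = 0.514 from edgeR). Every EX library lay below every control library, and the share of all genes for which this held was not determined. In SkM, EX against control called 0 of the 10 (0.0775% of all genes), CREX against CR 0 (0%), the EX main effect 0 (0.0294%) and the interaction 0 (0%) in edgeR. DESeq2 again called 0 in each, with its own share of all genes not determined. In edgeR 2, 1, 3 and 1 of the 10 had an unadjusted p under 0.05, beside 6.85%, 3.65%, 6.77% and 4.92% of all genes. In EX against control these were Tek (-0.24, adjusted p = 0.544) and Vegfb (0.21, adjusted p = 0.702), and in the EX main effect Tek (-0.35, adjusted p = 0.633), Icam2 (-0.28, adjusted p = 0.603) and Angpt1 (-0.45, adjusted p = 0.661). Icam2 was the gene in CREX against CR (-0.62, adjusted p = 0.999), where CR held 4.48, 4.31 and 4.39 CPM and CREX 3.50, 2.42 and 2.66 CPM, and in the interaction (-0.66 ± 0.22, adjusted p = 0.941 from edgeR). Without CREX replicate 1 the interaction of Vegfb was called (-0.72, adjusted p = 0.0272).

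Of 14 other genes of the VEGF and angiopoietin system in the table, 13 were tested for the CR main effect in SkM, of which 4 fell and 3 rose (median -0.38), beside 8.13% of all genes called lower and 5.99% called higher. Aplnr, the apelin receptor, was 3.91 to 8.99 CPM in fully fed and 0.555 to 2.21 CPM in restricted muscle (-2.17 ± 0.23, adjusted p = 1.84e-05). The lymphatic growth factor Vegfc (-1.17, adjusted p = 0.000814) and the VEGF co-receptor Nrp1 (-0.90, adjusted p = 0.00123) also fell, and Vegfd, another lymphatic growth factor, rose (0.76, adjusted p = 0.00356). The remaining calls, named after their values were seen, were Apln (-1.04), which encodes a ligand of APLNR, Pgf (0.87), a ligand of FLT1, and Angptl4 (1.46), an inhibitor of lipoprotein lipase. In BAT 12 were tested and 1 was called (median -0.41), a share near the 7.83% of all genes called lower and 3.96% called higher. This was Nrp2, a co-receptor for VEGFC, at 60.8 to 107 CPM in fully fed and 28.9 to 48.1 CPM in restricted libraries (-1.02 ± 0.09, adjusted p = 2.74e-06). Aplnr of BAT was called between CREX and EX (-0.86, adjusted p = 0.0301) but not over both activity levels (-0.48, adjusted p = 0.0569).

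Among 20 other endothelial genes 4 fell in SkM and none rose (median -0.28, values from -0.90 to 0.12), beside 8.13% of all genes called lower and 5.99% called higher. They were Emcn, a sialomucin of capillaries and veins (-0.90, adjusted p = 0.00023), Ushbp1 (-0.84, adjusted p = 0.000202), the secreted endothelial factor Egfl7 (-0.66, adjusted p = 0.000713) and the matrix gene Mmrn2 (-0.63, adjusted p = 0.000262). The 20 genes summed to 325 to 360 CPM in control, 290 to 323 CPM in CR, 299 to 416 CPM in EX and 224 to 344 CPM in CREX, so that CR lay just below control and CREX overlapped EX. In BAT 2 of the 20 fell, near the 7.83% of all genes called lower, and none rose (median -0.10). These were Eng, a co-receptor for BMP9 (-0.61, adjusted p = 9.82e-05), and the tight junction gene Cldn5 (-1.03, adjusted p = 0.00301).

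Of 12 Notch and sprouting genes 11 were tested in each tissue (medians -0.09 in SkM and -0.10 in BAT). In SkM 2 fell, and in BAT 3 fell and 1 rose, beside the same shares of all genes. Hes1, a Notch target also expressed in other cells, and Nrarp, a Notch feedback inhibitor, fell in SkM (-1.06 and -1.05, adjusted p = 8.07e-05 and 0.00195) and in BAT (-1.14 and -0.97, adjusted p = 9.82e-06 and 0.00065). In BAT the ligand gene Dll1 also fell (-0.96, adjusted p = 4.24e-05) and Hey2, a transcription factor gene of arteries, rose (1.48, adjusted p = 0.000543), from at most 0.931 CPM in fully fed to 1.24 to 3.39 CPM in restricted libraries. Of 10 upstream regulators of Vegfa 1 fell in each tissue and none rose (medians -0.20 in SkM and -0.26 in BAT), which is near the share of all genes called lower (8.13% in SkM and 7.83% in BAT). In SkM it was Ppargc1b, a coactivator of oxidative genes, at 13.4 to 21 CPM in fully fed and 3.53 to 8.38 CPM in restricted muscle (-1.60 ± 0.14, adjusted p = 1.69e-06). In BAT it was the related coactivator Ppargc1a (-0.82 ± 0.28, adjusted p = 0.0436).

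**Figure D5:**
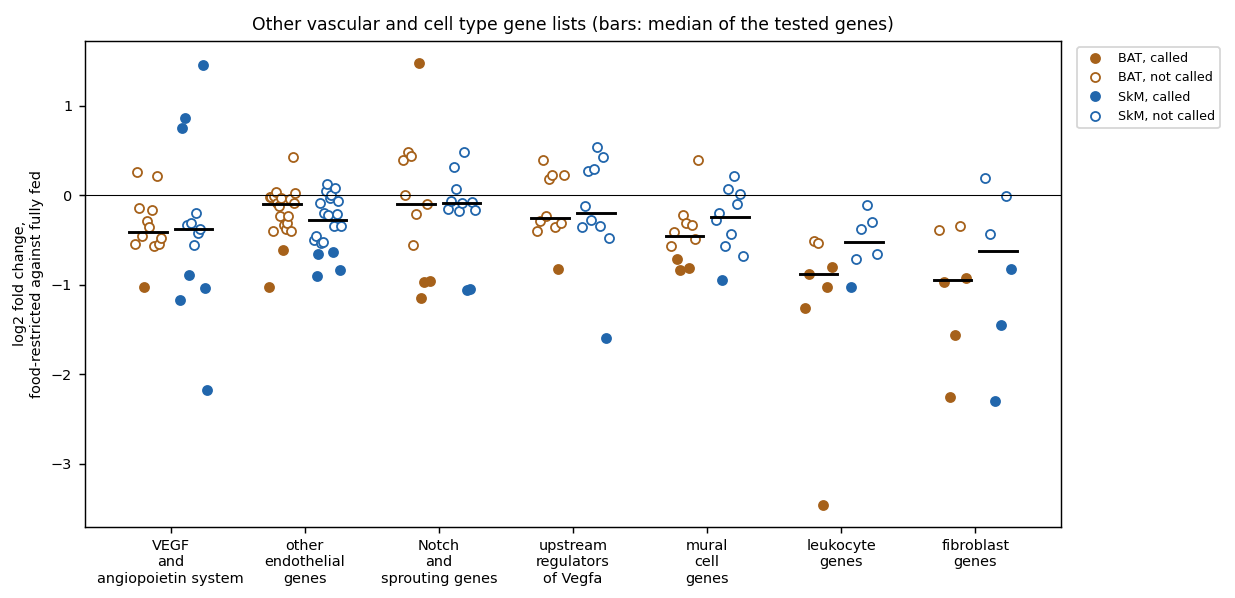
Log2 fold change of restricted against fully fed libraries over both activity levels for every tested gene of 7 lists in BAT (brown) and SkM (blue), with filled points for called genes and bars for the list median. All 14 medians lie below 0, and the genes called higher are Vegfd, Pgf and Angptl4 in SkM and Hey2 in BAT.

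Markers of other cells moved with restriction as well, and their part in the results above was not tested. The counts stand beside 7.83% of all genes called lower and 3.96% called higher in BAT, and 8.13% and 5.99% in SkM. Of 10 mural cell genes 3 fell in BAT (Kcnj8, Acta2 and Cspg4, at -0.84, -0.81 and -0.71) and 1 in SkM (Cspg4, -0.95). Their sum in BAT was 419 to 479 CPM in control and 396 to 452 CPM in EX, above 300 to 326 CPM in CR and 293 to 352 CPM in CREX, while in SkM all groups overlapped between 468 and 677 CPM. Of 6 fibroblast genes 4 fell in BAT and 3 in SkM, among them Col1a1 (-2.25 and -2.30). In BAT their sum was 227 to 257 CPM in control, 144 to 184 CPM in CR, 249 to 938 CPM in EX and 165 to 190 CPM in CREX, with EX replicate 3 at 938 CPM and the other EX libraries at 278 CPM or less. Col1a1 of BAT reached 350 CPM in 1 fully fed library against a fully fed median of 34.5 CPM, and was called between CR and control (-1.29, adjusted p = 0.000137) but not between CREX and EX (-3.21, adjusted p = 0.107). In SkM the fibroblast sum was 304 to 390 CPM in control, 236 to 302 CPM in CR, 276 to 434 CPM in EX and 260 to 289 CPM in CREX. Leukocyte genes were low, at 11.9 to 41.3 CPM summed in BAT and 5.17 to 15.8 CPM in SkM, with Cd3e at 0 in all CR, EX and CREX muscles. Of these, 5 of 7 tested fell in BAT, among them Ptprc (-1.26), and 1 of 6 in SkM, also Ptprc (-1.03).

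Of the lymphatic endothelial genes 1 of 4 tested rose in BAT and 1 of 5 in SkM, in both tissues Lyve1 (0.83 and 1.11), which macrophages also express. Of the platelet genes 2 of 4 fell in BAT and 0 of 3 were called in SkM, and 0 of 5 red cell genes were called in either tissue. Of the adipocyte genes 1 of 8 was called in BAT (Lep, -1.21) and 0 of 7 in SkM (median 1.87). Brown adipocyte genes summed to 6876 to 9452 CPM in fully fed and 4775 to 6720 CPM in restricted BAT, with Ucp1 called lower (-1.01) and Elovl3 higher (0.89), and of 6 tested in SkM 2 were called lower and 1 higher. Of 10 skeletal muscle fibre genes 0 were called in BAT (median 0.74) and 1 in SkM (Mylpf, 0.75), and of 8 slow fibre genes 0 were called in BAT (median 1.80) and 1 in SkM (Atp2a2, -1.41).

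The genes whose level followed that of Kdr, Angpt1 or Vegfa most closely were sought among 11901 genes in BAT and 11676 in SkM with a mean of at least 1 CPM, by Pearson's r of log2 CPM over all libraries of the tissue (n = 15 in BAT and 14 in SkM). Libraries of a tissue share the group differences, and SkM also the slow fibre differences, so these are descriptions. In SkM, Kdr was followed by Ifi203 (r = 0.992), Cxcl12 (0.983) and Pxdn (0.982), Angpt1 by Tnfrsf19 (0.970), Stau2 (0.970) and Hccs (0.967), and Vegfa by Epb41l1 (0.953), Sacm1l (0.948) and Irf5 (0.944). In BAT, Kdr was followed by Igsf21 (0.932), Uck1 (0.924) and Pigyl (0.919), Angpt1 by Cpsf1 (0.836), Efna5 (0.809) and Itga1 (0.794), and Vegfa by Maob (0.856), Alkbh5 (0.818) and Sord (0.815).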

How the data were processed

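RNA-seq libraries of BAT (n = 15) and SkM (n = 14) were analysed, grouped by the sample labels. Trimmed reads had been mapped to mm10 with STAR 2.7.10a and counted with RSEM by the authors, who deposited expected counts for each gene symbol without normalization. Which annotation served for counting is not given in the sources used here. Since 6.111% of values were not whole, counts were rounded. A level of 3 counts equals 0.120 to 0.143 CPM in BAT libraries and 0.128 to 0.130 CPM in those of SkM. A spreadsheet had changed 27 symbols into dates, none of them named here.

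Comparisons of 2 groups were fitted on their own libraries in edgeR 4.0.16 (R 4.3.3) with TMM normalization, filterByExpr and the robust quasi-likelihood test, and main effects, the interaction and the tissue difference on all groups concerned (12907 to 14865 genes tested). SE is the log2 fold change divided by the square root of F. DESeq2, the study's tool, was run as an alternative in version 1.42.0 with the same thresholds. The tests were checked on simulated data. Levels per kb use TMM factors over all 29 libraries and GENCODE vM21 exon lengths. No 2 libraries held identical counts. The labels name no batch. Each p-value sets a difference against the spread between these libraries, as moderated over all genes.

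The 10 genes and all lists were chosen with earlier results of these data known, so a list's counts are not independent evidence. From each further list the text names up to 4 genes called under restriction, by smallest p, and for other cell types also abundant members. Alternatives were DESeq2, its size factors in edgeR (RLE), no filter, the replicate block, no fold minimum, 1 fit of all groups, the fibre score covariates and each library left out. The covariates in the main effects and the left-out sets of libraries were chosen after the data had been seen.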

Additional observations from a re-analysis of the deposited data

Results flagged for a closer look

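The response to restriction differed between muscle and brown fat for 4 of the 10 genes by the direct test over all libraries, beside 10.5% of all genes called and 4.83% called lower, with log2 differences (SkM minus BAT) of -0.87 for Kdr, -1.29 for Angpt1, -0.66 for Vegfa and -0.64 for Vegfb.

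Of 50 sets of 4 libraries, each holding 1 gene in 1 group, 2 held a library far from the other 3 by Dixon's criterion, and chance alone gives about 1 set in 20. Cdh5 was 107.9 CPM in SkM EX replicate 3, with the other EX libraries at 87.4 to 89.9 CPM. Pecam1 was 77.3 CPM in SkM control replicate 3, with the other control libraries at 64.6 to 65.9 CPM.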

How the results depend on the processing

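For SkM CR against control 4 of the 10 genes were called, and 2 to 5 with a library left out. For SkM CREX against EX 4 were called, 0 with the slow fibre covariate and 2 to 8 with a library left out. For BAT CR against control 1 was called, 4 with no fold minimum, 2 with the muscle fibre covariate and 1 to 2 with a library left out. For BAT CREX against EX 1 was called, and 0 to 1 with a library left out. With no fold minimum the BAT CR main effect gave 3 calls instead of 1 and BAT against SkM gave 4 instead of 2. The SkM CR main effect gave 6 (14.1% of all genes called) and 4 with the slow fibre covariate (10%). Without CREX replicates 2 and 3 its folds for Cdh5, Icam2, Vegfa and Vegfb fell under 1.5. The tissue difference gave 4 (10.5% of all genes called) and 1 to 5 with a single library left out, and the SkM interaction gave 0 to 1. Without CREX replicates 2 and 3 the tissue differences of Kdr, Vegfa and Vegfb fell under 1.5-fold. For fits with a library left out, and for covariate fits of 2 groups, the share of all genes called was not determined. In DESeq2, with RLE size factors and with no filter every count stayed within 1.5 times, although DESeq2 added Kdr (adjusted p = 0.0391) and Vegfa (0.0400) in SkM CREX against EX, and with no filter Cdh5 was lost there (0.0844) and Kdr in the tissue difference (0.0545). The cause of these moves was not tested, apart from the fold minimum, which adds calls by construction. No called gene changed sign.

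Same-numbered libraries did not deviate together in every pair (lowest correlation of deviations -0.471, highest 0.497), so the numbers were not taken to pair the mice. The labels do not say what a number marks. With the replicate block BAT CR against control gave 2 calls, BAT CREX against EX 0, SkM CREX against EX 2, and Kdr did not pass in the tissue difference (adjusted p = 0.0633). Angpt2 is limited by depth, at 13 to 73 counts per library.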
